A study of Mus musculus with 12 samples.

Results

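Cadherins are calcium-dependent adhesion proteins that hold neighbouring cells together, and catenins link their cytoplasmic tails to the actin cytoskeleton. The genes described here are the classical and related cadherins (Cdh followed by a number), the Fat, Dachsous (Dchs) and Celsr cadherins, the alpha, beta and delta catenins (Ctnna, Ctnnb, Ctnnd) and Jup, which encodes plakoglobin. The rule for membership reads gene symbols and no measured value. The rule found 38 of the 24525 genes counted, and 23 of the 38 had enough reads (edgeR's filterByExpr) to be tested between genotypes.

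The RNA came from neurospheres, free-floating cultures of neural stem/progenitor cells (NSPCs), which had been set up from forebrains of mouse embryos at E14.5. Both genotypes were C57BL/6 cells at passage 1, kept in 20 ng/ml EGF and 10 ng/ml bFGF with N2 and B27 supplements and given no further treatment. In Ythdf2-/- embryos the segment between LoxP sites around the 5′ UTR and exon 1 of Ythdf2 had been removed through ubiquitous Cre, so the gene was lost in every cell of the embryo and not in NSPCs alone, and wild-type embryos served as controls. There were 3 wild-type and 3 Ythdf2-/- libraries, made from fragmented mRNA that had not been incubated with the m6A antibody. The paper describes the 3 libraries of each genotype as biological replicates. The labels number them but do not say which embryos or cultures they came from. The p-values set the difference between genotypes against the spread between these libraries.

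In the developing forebrain, N-cadherin and its catenins build the adherens junctions that tie neural progenitors to each other at the ventricular surface. Type II cadherins are expressed in patterns that differ between brain regions and cell groups, and Fat, Dachsous and Celsr proteins are large cadherins known for Hippo signalling and planar cell polarity. Beta-catenin also carries the Wnt signal into the nucleus. Ythdf2 is a reader of N6-methyladenosine (m6A), a mark on mRNA, that speeds the decay of the mRNAs it binds.

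The libraries held 11029827 to 13185778 counted reads, of which the 38 genes took 0.363% to 0.429%. Ythdf2 itself had 840, 961 and 999 reads in wild type and 137, 198 and 138 in Ythdf2-/- (log2 fold change of Ythdf2-/- over wild type -2.66, standard error, SE, 0.183, adjusted p = 0.0547 in the edgeR quasi-likelihood fit). Wild-type replicate 3 stood apart, at 91.0 on the first principal component of log2 CPM (CPM, read counts scaled to library size) against -30.6 to -6.04 for the other 5 libraries. Its summed neuronal markers came to 2062 CPM against 1097 to 1322 elsewhere, its oligodendrocyte lineage markers to 3424 against 1574 to 1903, its astroglial markers to 12655 against 4212 to 10109, and its progenitor markers to 3410 against 4809 to 6510. Each of these lists was mixed. Olig1 (547 CPM against 874 to 1250), Olig2 and Cspg4 were lowest in that library, while Sox10, Mbp and Pdgfra were highest. Gfap, Aqp4 and Aldoc were highest there, and the other 5 of 8 astroglial markers were not. Within the progenitor list Nes, Vim and Fabp7 were lowest in that library, while Sox2, Pax6, Hes1, Hes5 and Prom1 were highest there (Sox2 at 551 CPM against 316 to 426). Endothelial markers summed to at most 4.11 CPM in any library, with Cldn5 at 0 reads throughout, and microglial markers to at most 1.54 CPM, with Ptprc and C1qa at 0. Of the epithelial markers, Krt18 and Cldn4 had 0 reads in all 6 libraries, and most of the list's 22.2 to 59.9 CPM was Otx2, which neural tissue also expresses. Mesenchymal markers summed to 11.6 to 41.6 CPM, highest in wild-type replicate 3, where Pdgfrb had 347 reads against 2 to 41 in the others, while Foxc1 had 101 to 259 reads, Twist2 had 0 reads in all 6 libraries and Col1a1, Col3a1, Dcn and Lum had at most 8. Reads on Y-linked genes numbered 1111, 1638 and 1 in wild type and 0, 1 and 2147 in Ythdf2-/-. Fold changes that moved much when wild-type replicate 3 was left out are given with and without it.

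To compare levels between genes, counts were divided by exon length and library size (RPKM, reads per kilobase of exon scaled to sequencing depth). Ctnnb1, beta-catenin, had the highest level by far, with a mean of 318 RPKM over the 6 libraries and a range of 308 to 331. Ctnna1, the widely expressed alpha catenin, followed at 74.3 RPKM. Cadherins and the delta catenins took the next places. Cdh2 (N-cadherin) stood at 55.3, Ctnnd1 (p120-catenin) at 49.2, Ctnnd2 (delta-catenin) at 44.8, Cdh20 at 41.3, Cdh4 (R-cadherin) at 30.1, Cdh13 at 29.5 and Fat1 at 27.0 RPKM. At the low end were Fat3 at 3.37, Cdh24 at 2.35 and Celsr3 at 1.31 RPKM. Only Ctnnb1 was clear of its neighbour in this order: the ranges over the 6 libraries overlapped in 21 of the 22 neighbouring pairs. Among the classical cadherins, Cdh2 made up 26.3% to 40.5% of the summed RPKM, Cdh20 19.1% to 26.2% and Cdh4 9.93% to 20.7%. For Cdh2 the highest of these shares, and for Cdh20 and Cdh4 the lowest, was that of wild-type replicate 3.

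**Figure D1:**
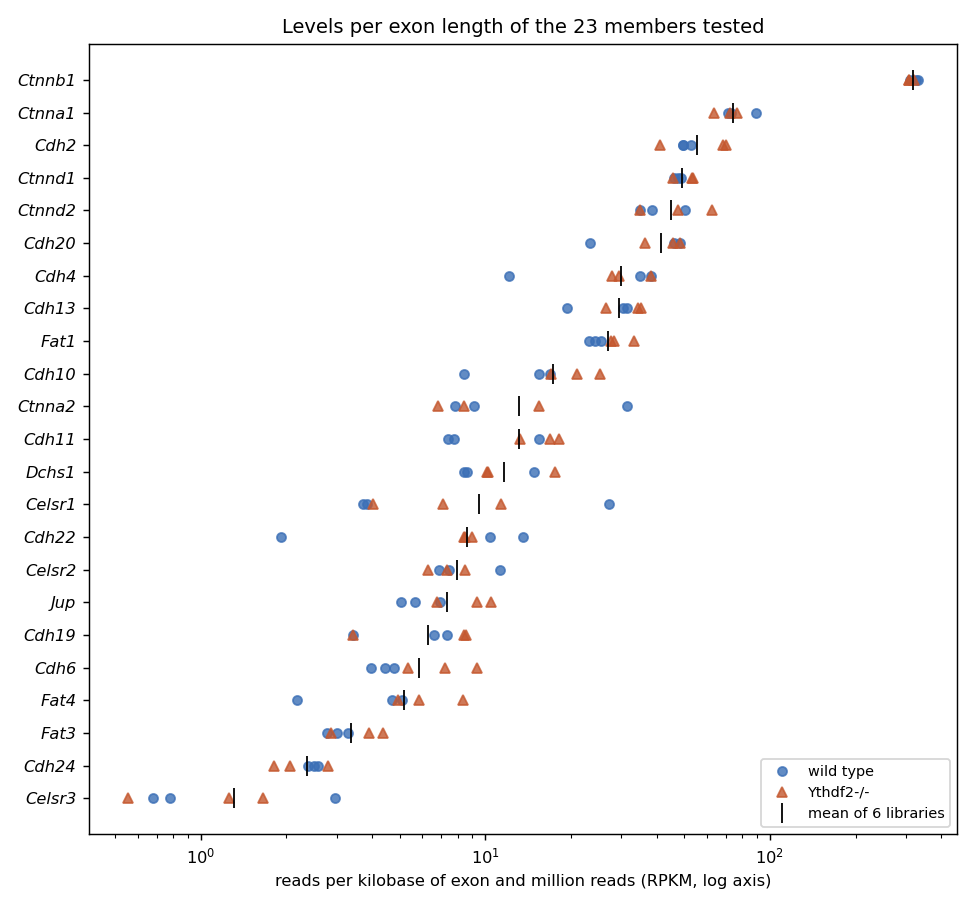
Level per exon length (RPKM, log axis) of the 23 genes tested, with 1 point per library (circles wild type, triangles Ythdf2-/-) and a bar at the mean of the 6 libraries. Ctnnb1 lies at 308 to 331 RPKM, apart from all others. In Celsr1, Ctnna2, Cdh4 and Cdh22 a single wild-type point lies farthest from the rest, and the other points of Celsr1 and Ctnna2 also spread.

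The remaining 15 genes were at or near background, with 0 to 18 reads in any library, and 10 of them had at most 3 reads in every library. They included Cdh1 (E-cadherin of epithelia), with 4, 6 and 18 reads in wild type and 4, 10 and 0 in Ythdf2-/-. Cdh5, the cadherin of endothelial junctions, had 0 reads in all wild-type libraries and 1, 0 and 2 in Ythdf2-/-. Cdh16 had 6 to 15 reads, and Cdh8 had 0 to 13. The others were Cdh3, Cdh7, Cdh9, Cdh12, Cdh15, Cdh17, Cdh18, Cdh23, Cdh26, Fat2 and Ctnna3. A count of 0 allows up to 3 reads, or 0.222 to 0.274 CPM in these libraries, which covers counting error only, so no fold between genotypes is given for these genes.

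The comparison between genotypes asks which of these adhesion genes differ in mRNA level when the m6A reader is missing. With the quasi-likelihood test of edgeR and Benjamini-Hochberg adjustment, 0 of the 23 genes were called at an adjusted p under 0.05, as were 0 of all 13112 genes tested (0%), and the smallest adjusted p among the 23 was 0.999. Of the 23 genes, 16 lay higher and 7 lower in Ythdf2-/-. Their median log2 fold change was 0.22 against -0.011 over all genes tested, of which 48.1% lay higher. Among the cell type markers, 0 were called between the same groups. Of the 8 neuronal markers, 1 lay higher in Ythdf2-/- with all libraries (median log2 fold change -0.82) and 6 without wild-type replicate 3 (median 0.17). Astroglial markers split into 4 higher and 4 lower (median 0.0036), and 5 of 8 lay higher without it. Progenitor markers had 3 of 8 higher in both fits, and the oligodendrocyte lineage had 3 of 7 and then 2 of 7 higher. Markers with an unadjusted p under 0.05 came from these mixed lists. The astroglial marker Gfap had 437, 625 and 3046 CPM in wild type and 127, 87.7 and 5.55 CPM in Ythdf2-/-, a log2 fold change of -4.22 (unadjusted p = 0.0166, edgeR quasi-likelihood) and of -2.85 without wild-type replicate 3. The progenitor marker Prom1 (-2.43, and -1.60 without that replicate), the neuronal marker Stmn2 (-2.33 both with and without it) and the oligodendrocyte lineage marker Cspg4 (0.44 and 0.41) also had groups that did not overlap and an unadjusted p under 0.05, as did Mbp (-5.81 and -1.16). Dcx (-3.51 and -0.23) and Sox10 (-4.27 and -0.44) reached that p with overlapping groups. The part of these markers' cell types in the fold changes of the 23 genes was not tested. Cdh6 and Jup, 2 of 23 genes (8.7%), both higher in Ythdf2-/-, reached an unadjusted p under 0.05, against 3.63% of all genes (1.81% higher). In Cdh6, Cdh10 and Fat1, 3 of 23 genes (13%), each Ythdf2-/- library exceeded each wild-type library, and 10.2% of all genes were apart in either direction (5.24% in this one). DESeq2 also called 0 of the 23 (0.236% of all genes) and gave 2 of them an unadjusted p under 0.05 (4.27% of all genes). The fold changes of 8 of the 23 genes (Cdh4, Cdh19, Cdh20, Cdh22, Celsr1, Celsr2, Celsr3 and Ctnna2) turned sign without wild-type replicate 3, and the median was then 0.30. In that fit 4 of the 24 genes that passed the filter (16.7%) had an unadjusted p under 0.05, against 16.6% of all genes, and the groups were apart in 7 of 24 (29.2%), against 38.9% of all genes.

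**Figure D2:**
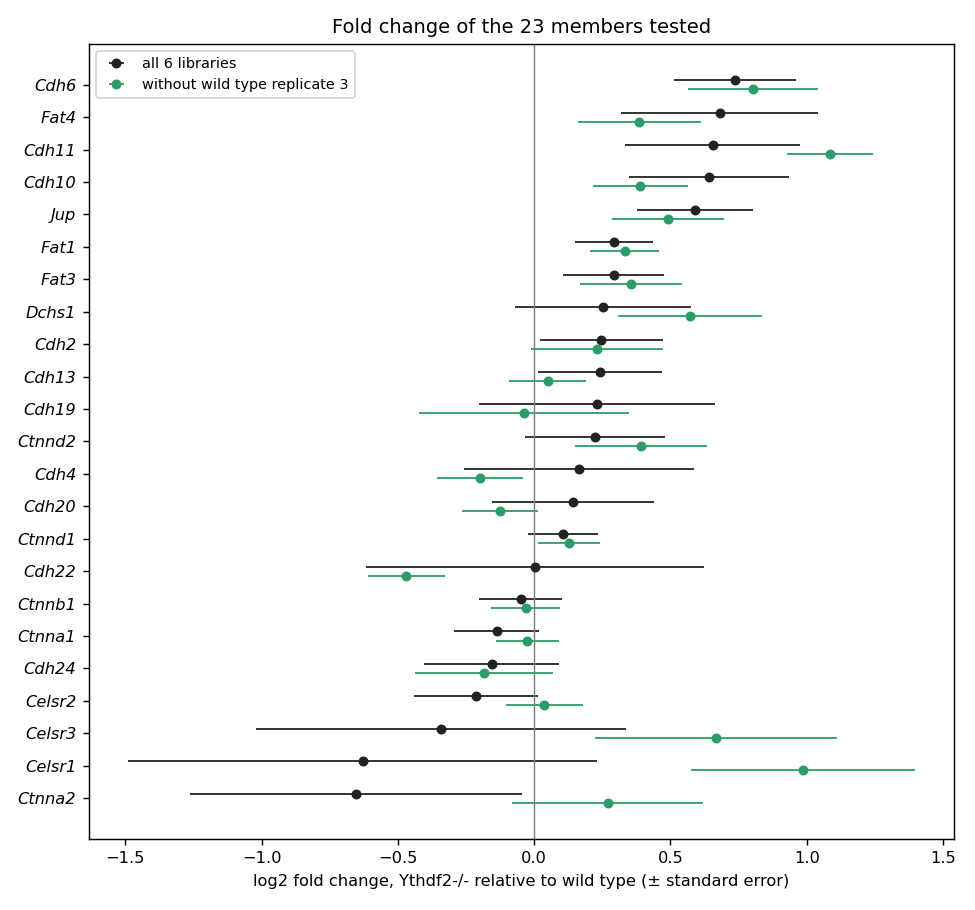
Log2 fold change (Ythdf2-/- relative to wild type) of the 23 genes tested, with bars of 1 standard error, from all 6 libraries (black) and without wild-type replicate 3 (green). Cdh6, Jup, Cdh10, Fat1 and Cdh11 stay above 0 in both, while Celsr1 moves from -0.63 to 0.99 and Cdh4 from 0.17 to -0.20.

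Type I classical cadherins bind the same cadherin on the adjoining cell, and 2 of the 5 were tested. Cdh2, the main cadherin of neuroepithelial junctions, had 239, 257 and 239 CPM in wild-type replicates 1 to 3 and 340.3, 199 and 333 CPM in Ythdf2-/- replicates 1 to 3. Its wild-type libraries were tight, whereas Ythdf2-/- replicate 2 lay below all of them and the other 2 lay above. On the log2 scale Cdh2 differed by 0.25 (SE 0.227). Cdh4, first known from retina and also present in brain, had 256, 234 and 81.4 CPM in wild type and 198, 187 and 256 CPM in Ythdf2-/-. Only wild-type replicate 3 was low, and the groups overlapped. Cdh4 had a log2 fold change of 0.17 (SE 0.421) with all libraries and of -0.20 (SE 0.157) without that replicate. In bulk RNA such as this, fewer cells of a type and less RNA per cell cannot be told apart, and the part of the differing marker levels of wild-type replicate 3 in these values was not tested.

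Type II classical cadherins lack the histidine-alanine-valine motif of type I and sort neurons and progenitors into groups. Of the 13, 7 were tested, 6 of them higher and 1 lower in Ythdf2-/- with all libraries, and 3 higher and 4 lower without wild-type replicate 3. Cdh6, known from forebrain compartment boundaries and kidney development, had 36.1, 32.3 and 38.9 CPM in wild type (mean 35.8 ± 3.32, SD, n = 3) and 58.8, 43.6 and 76.4 CPM in Ythdf2-/- (mean 59.6 ± 16.4, SD, n = 3). The groups were apart, with Ythdf2-/- replicate 2 the nearest to wild type. The log2 fold change of 0.74 (SE 0.224) had an unadjusted p of 0.0156 and an adjusted p of 0.999 (edgeR quasi-likelihood). It stayed between 0.52 and 0.93 when any single library was left out, and was 0.80 without wild-type replicate 3.

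Cdh10, a neural type II cadherin, had 54.7, 59.7 and 29.7 CPM in wild type and 74.6, 60.6 and 89.6 CPM in Ythdf2-/-. The groups did not overlap, but Ythdf2-/- replicate 2 lay only just above wild-type replicate 2. Its log2 fold change was 0.64 (SE 0.293, unadjusted p = 0.0696, edgeR quasi-likelihood), and 0.39 without wild-type replicate 3, the lowest library. Cdh11, a cadherin of mesenchyme that is also made in brain, had 37.9, 39.6 and 79.3 CPM in wild type and 86.3, 67.7 and 92.9 CPM in Ythdf2-/-. Here wild-type replicate 3 was high and lay among the Ythdf2-/- libraries, while the other wild-type replicates lay well below them. Cdh11 had a log2 fold change of 0.66 (SE 0.321) with all libraries and 1.09 (SE 0.156, adjusted p = 0.151, edgeR quasi-likelihood) without that replicate.

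A fit that weights libraries by quality, limma-voom with sample quality weights, gave wild-type replicate 3 a weight of 0.0901 and called Cdh11 (log2 fold change 1.12, adjusted p = 0.0213) and Cdh6 (0.83, adjusted p = 0.0374). Over all fits tried, the adjusted p ran from 0.0213 to above 0.999 for Cdh11 and from 0.0374 to above 0.999 for Cdh6. That fit called 632 genes in all (4.82%, with 2.54% higher in Ythdf2-/-), and in it 8 of the 23 (34.8%) reached an unadjusted p under 0.05, against 29.9% of all genes. With a term for the presence of Y-linked reads, 6 of the 23 (26.1%) had an unadjusted p under 0.05, against 11% of all genes. Of these, 4 lay higher in Ythdf2-/- (log2 fold change of Cdh6 0.78, Cdh10 0.91, Fat4 1.04 and Jup 0.70) and 2 lower (Celsr3 -0.72 and Ctnna2 -0.86). With that term Cdh4 came to 0.65, Cdh20 to 0.42 and Dchs1 to 0.084. Cdh20, the type II cadherin with the highest level per length, had 186, 195 and 93.5 CPM in wild type and 183, 147 and 194 CPM in Ythdf2-/-. Its wild-type replicate 3 was again low, and the log2 fold change was 0.14 (SE 0.296) with it and -0.12 (SE 0.139) without it. The other 3 type II cadherins tested, Cdh19, Cdh22 and Cdh24, had mean RPKM of 6.29, 8.62 and 2.35, and log2 fold changes of 0.23 (SE 0.434), 0.0026 (SE 0.621) and -0.16 (SE 0.249). Without wild-type replicate 3 these came to -0.038, -0.47 and -0.18, and the sign of Cdh22 also turned with the RLE scaling of edgeR (-0.0070).

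**Figure D3:**
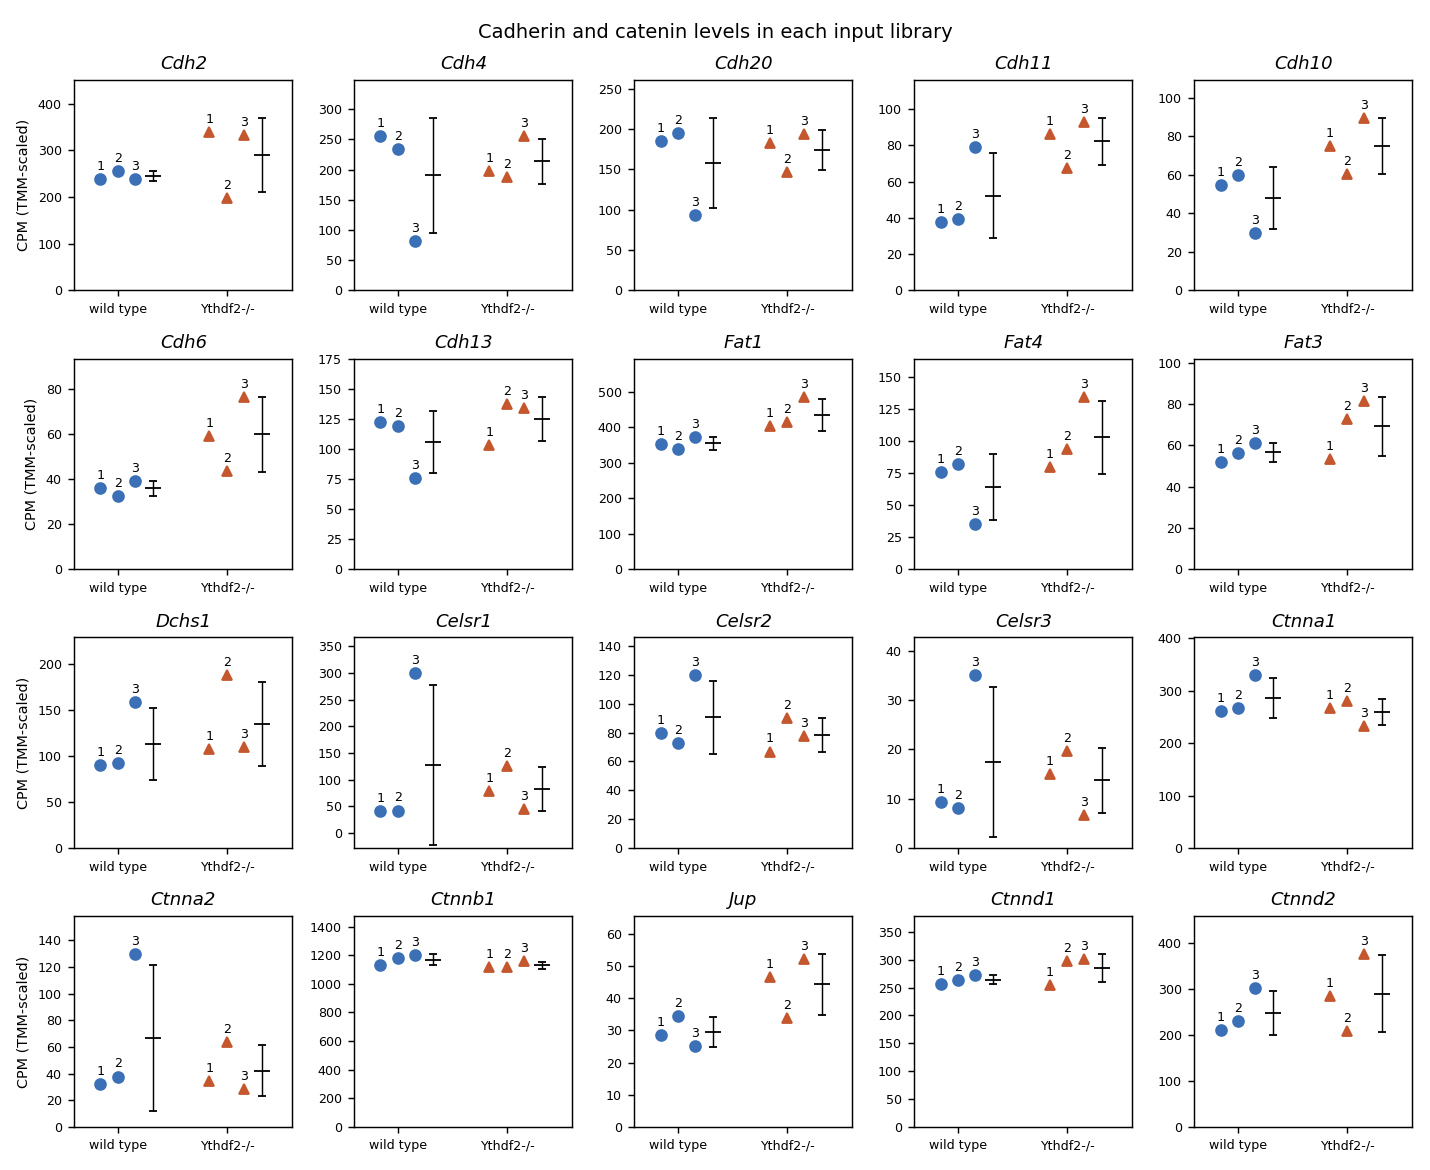
TMM-scaled CPM of the 20 genes given with the value of every library, with 1 numbered point per replicate (circles wild type, triangles Ythdf2-/-) and the mean ± SD (n = 3) beside each group. Each panel has its own linear axis: the groups are apart in Cdh6, Cdh10 and Fat1, and wild-type replicate 3 is the highest point in Celsr1 (300.3 CPM) and the lowest in Cdh4 (81.4 CPM).

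Cdh6 and Cdh10 lie in a single stretch of chromosome 15 that holds 5 type II cadherins (GRCm38). Cdh6 occupies chr15:13028699-13176407 on the minus strand and Cdh10 chr15:18818869-19016206 on the plus strand. Cdh9 lies between them, Cdh12 and Cdh18 follow, and these 3 had at most 3 reads in any library. None of the exons of the 23 genes tested overlapped an exon of another gene on either strand. Chromosome 8 held 9 of the 38 genes, among them Fat1 at chr8:44933100-45052257 (plus strand) and Cdh11 at chr8:102632095-102785493 (minus strand).

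Since Ythdf2 reads m6A, and GGACT is a common form of the motif in which m6A is laid down, the transcripts were searched for GGACT on the sense strand. At least 1 GGACT was present in the longest coding transcript of all 23 genes tested, as in 93.4% of the 12288 genes tested that had a transcript sequence. The 23 genes had a median of 1.23 GGACT per kilobase (0.240 in Ctnna2 to 2.25 in Celsr3), against 1.04 over all genes tested (quartiles 0.651 and 1.498). For each gene shown, the GGACT closest to the stop codon was taken whose surrounding 25 bases lay wholly within the coding sequence. These bases also had to match the genomic span of the gene at a single place, so motifs next to an exon junction were passed over. The stretches of the 3 genes whose groups did not overlap, of Jup and Cdh11, and of Ctnnb1, the gene with the highest level, read as follows. Capitals mark the motif, and the letters were read 5′ to 3′ on the gene's own strand from the GRCm38 reference.
Cdh6: ctaccccggcGGACTccaacagctc
Cdh10: ataccccggaGGACTcctaccgccc
Fat1: ccccaccagaGGACTtccctgcacc
Jup: aactgcctgtGGACTctgcgcaatc
Cdh11: actcagacctGGACTacgactatct
Ctnnb1: tgcagatcttGGACTggacattggt
These stretches lie at chr15:13034454-13034478 (minus strand, Cdh6), chr15:19013404-19013428 (plus, Cdh10), chr8:45050952-45050976 (plus, Fat1), chr11:100379545-100379569 (minus, Jup), chr8:102634390-102634414 (minus, Cdh11) and chr9:120958594-120958618 (plus, Ctnnb1). In Cdh6 and Cdh10 the motif ended the same distance, 264 bases, before the end of the stop codon, and the stretches were identical at 20 of 25 bases. Of the 13 type II cadherins, 2 held GGACT at that same distance from the end of the stop codon. The transcripts were not aligned, so this need not be the corresponding place in the others. This comparison was made after the stretches were seen. A match is a description of the letters only, and methylation of these sites was not analysed here.

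Among the other cadherins only Cdh13 (T-cadherin, held in the membrane by a lipid anchor and without a cytoplasmic tail) was tested, 1 of 5. It had 123, 119 and 75.8 CPM in wild type and 104, 138 and 134 CPM in Ythdf2-/-. The groups overlapped, and its log2 fold change of 0.24 (SE 0.226) came to 0.050 without wild-type replicate 3, the lowest library.

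Fat cadherins are giant cadherins, and 3 of the 4 were tested, all with a log2 fold change above 0 with or without wild-type replicate 3. Fat1, which acts in cell polarity and actin organisation, had 354, 338 and 373 CPM in wild type (mean 355 ± 17.96, SD, n = 3) and 405, 414 and 486 CPM in Ythdf2-/- (mean 435 ± 44.8, SD, n = 3). The groups did not overlap. For Fat1 the log2 fold change was 0.29 (SE 0.143, unadjusted p = 0.0839, edgeR quasi-likelihood) and ranged from 0.21 to 0.35 when any single library was left out.

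Fat4, the partner of Dchs1, had 75.5, 81.9 and 35.0 CPM in wild type and 79.7, 94.0 and 135 CPM in Ythdf2-/-. Ythdf2-/- replicate 1 lay below wild-type replicate 2, so the groups overlapped, and the log2 fold change of 0.68 (SE 0.361) was 0.39 without wild-type replicate 3. Fat3, known from amacrine cells of the retina, had 52.0, 56.3 and 61.4 CPM in wild type and 53.4, 72.6 and 81.7 CPM in Ythdf2-/-. Its Ythdf2-/- replicate 1 lay within the wild-type range, and the log2 fold change was 0.29 (SE 0.185). Summed over the Fat genes, the level was 31.7, 31.2 and 31.0 RPKM in wild type and 35.5, 38.0 and 46.0 RPKM in Ythdf2-/-. Fat1, whose own groups were apart, made up the larger part of this sum. The sum did not overlap between the groups, and those of the other 8 of 9 roles did. Among all single genes tested, 10.2% were apart in either direction.

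Dchs1, the ligand of Fat4, was the only Dachsous gene counted. It had 89.4, 91.7 and 158 CPM in wild type and 108, 187 and 109 CPM in Ythdf2-/-. Wild-type replicate 3 and Ythdf2-/- replicate 2 stood above the other 4 libraries, which were close together. Its log2 fold change was 0.25 (SE 0.323), 0.57 without wild-type replicate 3 and -0.046 without Ythdf2-/- replicate 2.

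Celsr genes encode cadherins with a seven-pass membrane part that set up planar cell polarity, and all 3 were lower in Ythdf2-/- with all libraries and higher without wild-type replicate 3. Celsr1, which is expressed in progenitors, had 41.2, 42.4 and 300.3 CPM in wild type and 78.7, 125 and 44.3 CPM in Ythdf2-/-. The value of wild-type replicate 3 was above every other library, and the 3 Ythdf2-/- libraries lay above the remaining wild-type libraries. Celsr1 had a log2 fold change of -0.63 (SE 0.860) with all libraries and 0.99 (SE 0.410, adjusted p = 0.304, edgeR quasi-likelihood) without that replicate.

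Celsr2, which is found in progenitors and neurons, had 79.4, 73.0 and 119.6 CPM in wild type and 66.9, 90.04 and 77.6 CPM in Ythdf2-/-, with a log2 fold change of -0.21 (SE 0.228) and of 0.038 without wild-type replicate 3. Celsr3, which is expressed in postmitotic neurons and guides axon tracts, had 9.24, 8.01 and 35.0 CPM in wild type and 14.9, 19.5 and 6.60 CPM in Ythdf2-/-. Wild-type replicate 3 was the highest library in both, and its summed neuronal, oligodendrocyte and astroglial markers were also the highest. Celsr3 had a log2 fold change of -0.34 (SE 0.679) with it and 0.67 (SE 0.444) without it. The part of those markers' cell types in these values was not tested.

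**Figure D4:**
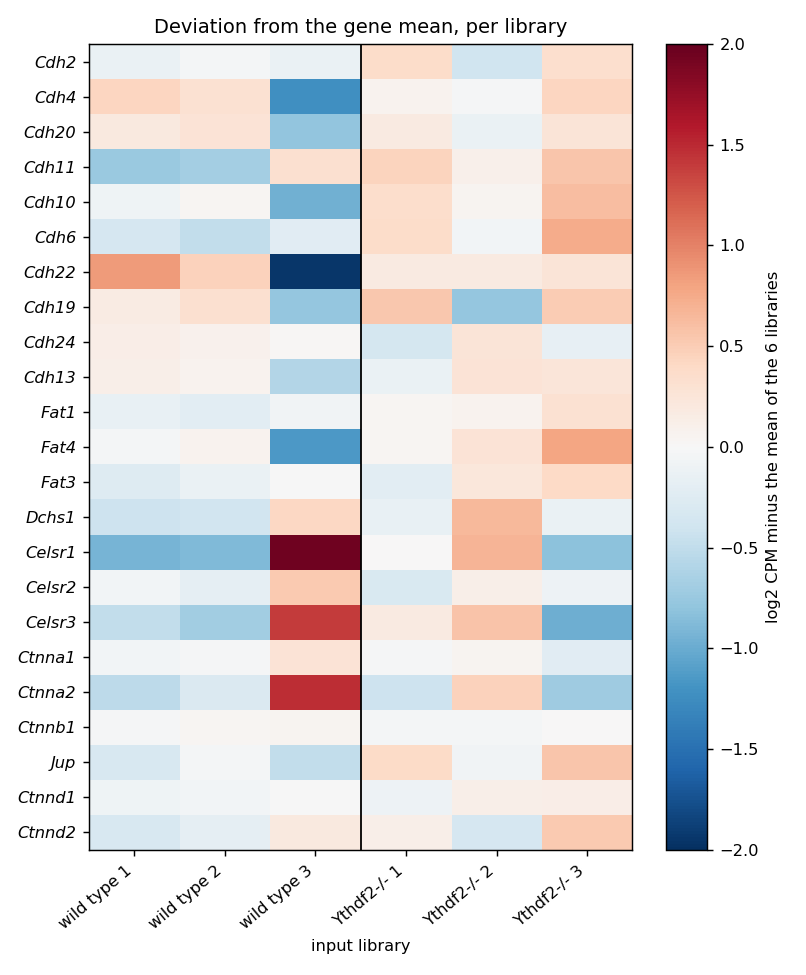
Deviation of log2 CPM from the gene's mean over the 6 libraries, 1 column per library and 1 row per gene tested, ordered by role from type I cadherins to delta catenins (red above the mean, blue below). The column of wild-type replicate 3 holds the strongest colours, red for Celsr1, Celsr3 and Ctnna2 and blue for Cdh22, Cdh4 and Fat4, and Ythdf2-/- replicate 3 is the highest library in 9 of the 23 genes.

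The spread between libraries was therefore uneven. Wild-type replicate 3 was the library farthest from the mean in 13 of the 23 genes, compared with 54.8% of all genes tested. It was at least 2-fold above the mean of the other wild-type replicates in 4 of the 23 (12% of all genes) and at least 2-fold below it in 5 (13% of all genes). Ythdf2-/- replicate 3 was the library farthest from the mean in 6 of the 23, compared with 11.1% of all genes tested. It had the highest level in 9 of the 23, and without it the median log2 fold change was 0.056.

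Alpha catenins bind beta-catenin or plakoglobin and connect the junction to actin. Ctnna1 had 262, 267 and 329 CPM in wild type and 267, 281 and 233 CPM in Ythdf2-/-, a log2 fold change of -0.14 (SE 0.155) that came to -0.025 without wild-type replicate 3, the highest library. Ctnna2, the alpha catenin of neurons, had 32.3, 37.8 and 129.6 CPM in wild type and 34.6, 63.8 and 28.2 CPM in Ythdf2-/-. The high wild-type replicate 3 also had the highest summed neuronal, oligodendrocyte and astroglial markers, though not every marker of these lists was highest there. Of the 8 neuronal markers, Dcx (3441 reads against 98 to 172), Tubb3, Rbfox3, Syt1, Elavl3 and Map2 were highest in that library, while Stmn2 (1.46 CPM against 1.54 and 1.45 in the other wild-type libraries) and Snap25 (9.79 CPM against 11.5 in Ythdf2-/- replicate 3) were not. Their part in the Ctnna2 values was not tested. Ctnna2 had a log2 fold change of -0.66 (SE 0.609) with that replicate and 0.27 (SE 0.350) without it, and the groups overlapped.

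Ctnnb1, beta-catenin, had the smallest spread over the 6 libraries relative to its level, with an SD of 9.88 RPKM around its mean of 318. It had 1129, 1182 and 1200.15 CPM in wild type (mean 1170.4 ± 37.0, SD, n = 3) and 1117, 1115 and 1160.1 CPM in Ythdf2-/- (mean 1131 ± 25.5, SD, n = 3). The groups overlapped, and the log2 fold change of -0.050 (SE 0.152) stayed between -0.074 and -0.028 when any single library was left out. Jup, the close relative of beta-catenin found in desmosomes as well as adherens junctions, had 28.4, 34.6 and 25.3 CPM in wild type and 46.6, 34.0 and 52.3 CPM in Ythdf2-/-. Ythdf2-/- replicate 2 lay just below wild-type replicate 2, and the other Ythdf2-/- libraries exceeded every wild-type library. The log2 fold change of Jup was 0.59 (SE 0.213, unadjusted p = 0.0307 and adjusted p = 0.999, edgeR quasi-likelihood), and 0.45 to 0.76 when any single library was left out. Per exon length Jup stood at 7.36 RPKM, against 318 for Ctnnb1. Jup lies at chr11:100368856-100397839 on the minus strand, and Ctnnb1 at chr9:120933400-120960507 on the plus strand.

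Delta catenins bind the part of the cadherin tail next to the membrane and hold cadherins at the surface. Ctnnd1 (p120-catenin) had 257, 264 and 272 CPM in wild type and 255, 298 and 301 CPM in Ythdf2-/-, a log2 fold change of 0.11 (SE 0.130). Ctnnd2, which is enriched in neural tissue, had 211, 231 and 302 CPM in wild type and 284, 209 and 376 CPM in Ythdf2-/-. Both groups of Ctnnd2 spread widely and overlapped, and its log2 fold change of 0.22 (SE 0.257) was -0.0076 without Ythdf2-/- replicate 3 and 0.39 without wild-type replicate 3.

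The partners of these proteins were followed in 4 lists. Of 28 adherens junction partners, 25 were tested, with 13 higher, 12 lower and 0 called at an adjusted p under 0.05 (median log2 fold change 0.0029). The groups were apart in 6 of the 25, against 10.2% of all genes. The median was 0.074 without wild-type replicate 3, where 15 lay higher, and 5 had an unadjusted p under 0.05, against 16.6% of all genes. The smallest unadjusted p values were those of Pkp4 (-0.78), an armadillo protein of junctions, Pkp2 (-2.10), a desmosomal plakophilin with at most 2.995 CPM, and Tjp1 (0.40), the scaffold ZO-1. Pkp4 had 89.8, 90.2 and 188 CPM in wild type and 75.6, 76.2 and 62.5 CPM in Ythdf2-/-, and was the only gene of the list with an unadjusted p under 0.05 (0.0480, edgeR quasi-likelihood). Without wild-type replicate 3, its highest library, the log2 fold change of Pkp4 was -0.33.

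Of 27 Fat, Dachsous and planar cell polarity partners, 26 were tested, with 15 higher, 11 lower and 0 called (median 0.023). The groups were apart in 6 of the 26 (higher in Lix1l, Vangl1 and Invs, lower in Fjx1, Stk3 and Wwtr1), against 10.2% of all genes. The median was 0.056 without wild-type replicate 3, with 17 higher and 7 at an unadjusted p under 0.05, against 16.6% of all genes. Fjx1, the relative of the Drosophila kinase four-jointed that modifies Fat and Dachsous in the Golgi, had 73.4, 74.2 and 75.1 CPM in wild type and 44.3, 43.3 and 53.7 CPM in Ythdf2-/-. Every Ythdf2-/- library lay below every wild-type library, and wild-type replicate 3 did not stand apart. The log2 fold change of Fjx1 was -0.66 (SE 0.131, unadjusted p = 0.00207 and adjusted p = 0.999, edgeR quasi-likelihood), and -0.65 without that replicate. Next in the list came the Hippo effector Wwtr1 (-0.25) and Vangl1 (0.43, and 0.28 without that replicate), a membrane protein of planar cell polarity.

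Of 19 members of the beta-catenin destruction complex and its TCF partners, 18 were tested, with 10 higher, 8 lower and 0 called (median 0.038). The scaffold Apc had 549.7, 535 and 578 CPM in wild type and 652, 641 and 775 CPM in Ythdf2-/-, which did not overlap, and a log2 fold change of 0.32 (SE 0.153). The Wnt target and scaffold Axin2 (0.40, SE 0.255) and the ubiquitin ligase subunit Btrc (-0.20, SE 0.179) came next in order of unadjusted p. Without wild-type replicate 3, which was lowest for Axin2 and highest for Btrc, these were 0.17 and -0.0048, and the list's median was 0.16, with 12 higher and 7 at an unadjusted p under 0.05, against 16.6% of all genes. Apc was the only 1 of the 18 whose groups were apart, against 10.2% of all genes. Of 6 repressors of cadherin genes, 3 were tested, with 1 higher, 2 lower and 0 called (median -0.13). These were Zeb1 (0.24), Zeb2 (-0.13) and Twist1 (-0.29), and their standard errors were 0.232, 0.399 and 0.935. Without wild-type replicate 3 they came to 0.042, 0.42 and -0.80, so that 2 of the 3 lay higher and the median turned to 0.042.

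The deposited FPKM values came from far fewer reads. For the 23 genes they rested on 0 to 18 expected counts per library, and in 20 of the 23 genes the expected counts of all 6 libraries summed to under 30. Cdh6 was listed at 0.56, 0.54 and 0 FPKM in wild type and 2.21, 0 and 4.67 FPKM in Ythdf2-/-. Cdh11 was listed at 0 in all libraries but 1.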

How the data were processed

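Raw counts, whole reads per gene, were deposited by the authors for the 3 wild-type and 3 Ythdf2-/- input libraries without normalization, and they were used as deposited. The 6 m6A-IP libraries were not analysed here. Libraries had been made with a strand-specific kit. The study's methods describe alignment to mm10 with TopHat, and the submitters' processing notes name Bowtie2 2.2.9, RSEM 1.2.15 and featureCounts, without roles. The strand setting is not given in the sources used here. The deposited tables also hold FPKM, expected counts and gene lengths from the authors, in the columns of an RSEM output, and the expected counts summed to 234725 to 272646 per library.

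Genes that passed edgeR's filterByExpr (13112, of which 23 of the 38 described) were tested in R 4.3.3 with the quasi-likelihood functions of edgeR 4.0.16 (glmQLFit, robust, then glmQLFTest) after TMM scaling. Genotype was the only term, and Benjamini-Hochberg adjustment ran over all genes tested. The steps were tested on simulated data. CPM were TMM-scaled, log2 CPM used a prior count of 2, and principal components used the 2000 most variable genes. RPKM were computed from the counts and the exon union of the RefSeq annotation of GRCm38, the build also called mm10. GGACT was searched in the longest coding transcript of GENCODE M21, which 12288 of the genes tested had. The smallest p of an exact permutation test of a single gene is 0.1 with 3 libraries in each group. Counting intervals cover counting error only. Python 3.11.15, pandas 2.3.3 and numpy 2.4.6 were used for levels and motifs.

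In each role the 3 genes with the highest mean CPM were given with the value of every library, as was any gene with an unadjusted p under 0.05, with groups that did not overlap or with an absolute log2 fold change of at least 1. In each partner list the 3 genes with the smallest p were named. The symbol rule for the genes and the partner and marker lists use no measured value, but both were chosen with earlier results of these data known. In all, 18 alternatives were run: other scaling (edgeR's RLE, library size alone), other filters (none, at least 10 counts in every library), DESeq2 1.42.0, limma-voom (limma 3.58.1) with and without sample quality weights, glmQLFit without the robust option, a block for the replicate number, a term for reads on 4 Y-linked genes (summing to over 3), limma on log2(FPKM + 1) and log2(FPKM + 0.1) for genes with a mean FPKM of at least 1, and leaving out each library. A pseudocount shrinks the fold changes of low genes, but the FPKM rested on few expected counts. Among the genes described, some FPKM fold changes were larger in size than those from counts and others were smaller.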

Additional observations from a re-analysis of the deposited data

How the results depend on the processing

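The spread of wild-type replicate 3 limits what 3 libraries per genotype can show, and the cause of the changes given here was not tested. Against 0 genes called in all, edgeR's RLE factors, no filter, and at least 10 counts in every library each called 1, DESeq2 called 31, quality weights 632, the term for Y-linked reads 13, and limma on log2(FPKM + 1) and log2(FPKM + 0.1) 2 and 1. Leaving out single libraries called 0 to 2, the 2 without wild-type replicate 3. Of the 23 cadherin and catenin genes, quality weights called 2, and all other alternatives called 0. An unadjusted p under 0.05 was reached by 8 with quality weights (29.9% of all genes) and by 6 with the term for Y-linked reads (11% of all genes). With either FPKM fit 0 reached it (3.62% and 3.35% of all genes). The FPKM fits tested 15 genes, among them Cdh7 and Cdh16, which were below the count filter. With a library left out 1 to 4 reached it (1.85% to 16.6% of all genes), 4 without wild-type replicate 3 and 1 without wild-type replicate 1 or Ythdf2-/- replicate 3. The groups did not overlap in 5 of 38 genes without a filter (9.25% of all genes), a fit that takes in the 15 genes with low counts, 0 in either FPKM fit (7.97%), and 4 to 8 with a library left out (23 or 24 genes tested): 8 without Ythdf2-/- replicate 2 (22.2% of all genes), 7 without wild-type replicate 3 (38.9%) and 7 without Ythdf2-/- replicate 1 (15.3%). The median log2 fold change was 0.13 over the 38 genes without a filter, 0.31 with the term for Y-linked reads, and 0.056 (without Ythdf2-/- replicate 3) to 0.30 with a library left out.

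The log2 fold change of Ythdf2 passed the threshold with RLE factors (-2.67, adjusted p = 0.0474), without a filter (-2.64, 0.0173), with at least 10 counts (-2.66, 0.0486), with DESeq2 (-2.67, 1.65e-30), with quality weights (-2.61, 2.42e-04) and with a Y-linked term (-2.75, 0.0270). It ran from -2.78 to -2.54 with a library left out, the latter without wild-type replicate 3 and past the threshold (adjusted p = 0.0203). With any other library left out its adjusted p was 0.246 to 0.866, and with the replicate block above 0.999 (edgeR).

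Signs turned with quality weights in Cdh13 (-0.089), Cdh20 (-0.063), Cdh4 (-0.21), Cdh22 (-0.40), Celsr1 (0.78) and Celsr3 (0.59). With log2(FPKM + 1) and log2(FPKM + 0.1) they turned in Cdh13 (-0.071 and -0.055), Cdh2 (-0.31 and -1.10), Cdh20 (-0.21 and -0.29), Celsr1 (0.048 and 0.075), Celsr2 (0.61 and 0.99), Ctnna1 (0.66 and 0.80), Ctnna2 (0.97 and 2.11), Ctnnb1 (0.11 and 0.10) and Ctnnd2 (-0.28 and -0.37). With single libraries left out the ranges were -0.038 to 0.56 for Cdh19, -0.12 to 0.32 for Cdh20, -0.47 to 0.49 for Cdh22, -0.20 to 0.44 for Cdh4, -1.05 to 0.99 for Celsr1, -0.35 to 0.038 for Celsr2, -0.69 to 0.67 for Celsr3, -1.06 to 0.27 for Ctnna2, -0.0076 to 0.43 for Ctnnd2 and -0.046 to 0.57 for Dchs1.

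With the replicate number as a block, 0 of the 23 genes were called, 2 (Cdh6 and Cdh11, 8.7%) had an unadjusted p under 0.05 against 1.4% of all genes, the median was 0.21, and Celsr1 turned to 0.081. The deviations of same-numbered libraries correlated at -0.25, -0.24 and -0.39, so the numbers were not taken to pair the samples. The 5 genes with the highest RPKM stayed the first 5 with the deposited gene lengths.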

Other observations

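Cdh22, a type II cadherin expressed in brain, was singled out after its values were seen. It had 48.7, 37.1 and 6.86 CPM in wild type and 30.3, 30.5 and 32.1 CPM in Ythdf2-/-, so the Ythdf2-/- libraries lay close together and between the wild-type values. Without wild-type replicate 3, its lowest library, the log2 fold change was -0.47 (SE 0.142, unadjusted p = 0.0152 and adjusted p = 0.224, edgeR quasi-likelihood), and it was the only one of the cadherin and catenin genes with a lower level in Ythdf2-/- among the 4 with an unadjusted p under 0.05 in that fit, beside Cdh6, Cdh11 and Fat1. In that fit 16.6% of all genes reached an unadjusted p under 0.05.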
